A study of Cavia porcellus with 9 samples.

Results

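The potassium channel genes of the guinea pig retina were taken as all deposited gene symbols that start with Kcn, followed by letters and a number. Of 19962 genes with counts deposited 87 carry such a symbol, and 76 of these, in 17 subfamily letters from Kcna to Kcnv, had enough counts to be tested. The other 11 were too low in counts. The retinas came from male guinea pigs (Cavia porcellus, tri-color, Dunkin-Hartley strain) obtained at 2 weeks of age, raised for 8 weeks in light of 1 colour (green, blue or white) on a 12:12 cycle and taken at 12 weeks of age; the labels do not account for the remaining time. White light was taken as the reference, no animal is described as genetically altered, and each light is represented by 3 RNA sequencing libraries of whole retina from 2 animal labels.

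Potassium channels set the resting potential of cells and end their electrical responses. Voltage-gated Kv channels are tetramers that open on depolarisation, inward rectifiers (Kir) hold the membrane near the potassium equilibrium potential, and two-pore-domain channels carry leak current. In the retina, photoreceptor inner segments carry a Kv current that shapes the light response, Müller glia remove potassium from around neurons through Kir channels, and the pigment epithelium behind the retina has its own Kir channel on the face towards the photoreceptors.

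The libraries held between 62155041 and 74979806 counts. Levels are given as counts per 10 to the power of 6 counts (CPM), scaled between libraries by TMM, and they were compared for a gene across libraries, never between genes, because transcript lengths were not used. Errors of levels are SDs over 3 libraries and errors of log2 differences are standard errors (SE). The retina label was checked on summed markers of 7 cone genes, at 3219 to 3709.7 CPM, and 8 bipolar cell genes, at 1367 to 1540.1 CPM in every library. In each light 2 of the 3 libraries share an animal number (libraries 1 and 2 of green, 2 and 3 of blue, 1 and 2 of white), so that p-values measure the spread between libraries, part of which is the spread between samples of 1 animal. The summed level of 12 pigment epithelium markers ran from 72.5 to 469 CPM. A suffix "-B", which the labels do not explain, ends the titles of 2 libraries, library 1 of green together with library 3 of white. Library 1 of blue and library 3 of white carry the labels 2R-23 and R-23, which were taken as different animals.

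No potassium channel gene passed the test for a difference between lights. In edgeR's quasi-likelihood test 0 of the 76 members passed an adjusted p (Benjamini-Hochberg, over all 15469 genes tested) of 0.05 in green against white, blue against white or green against blue. Over all genes 0.00646% passed in green against white, 0.00646% in blue against white and 0% in green against blue. The smallest adjusted p of a member in edgeR was 0.837 in green against white, 1.0 in blue against white and 0.536 in green against blue. When the 3 lights were tested jointly for any difference, 0 members passed, beside 0.00646% of all genes. DESeq2 also called 0 members in each of these tests, where it called 0.155%, 0.181%, 0.359% and 0.531% of the genes it gave an adjusted p; it gave one to 75, 75, 59 and 75 members in that order.

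At an unadjusted p under 0.05 stood 5 members in green against white (2 higher and 3 lower in green), 5 in blue against white (1 higher and 4 lower in blue) and 6 in green against blue (all 6 higher in green). These were 6.58%, 6.58% and 7.89% of the members, beside 5.81%, 4.45% and 7.18% of all genes. Split by direction, 3.52% of all genes reached that p with a higher and 2.29% with a lower level in green than in white. Against white, 2.47% did so with a higher and 1.98% with a lower level in blue. Between green and blue, 4.11% were higher in green and 3.06% lower. The joint test gave 3 members, beside 5.94% of all genes. These counts depended on single libraries. In green against white the count was 2 when library 3 of green, library 3 of blue or library 2 of white was left out, and 3 when library 2 of blue was. In blue against white it was 0 when library 3 of blue was left out, 2 for library 1 of blue or library 3 of white, and 3 for library 1 of white or library 2 or 3 of green. In green against blue it was 11 when library 3 of green was left out and 3 for library 1 of blue. The joint test gave 5 when either of the first 2 green libraries was left out, 6 for white library 1 or 3 and 7 for white library 2.

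The family as a whole was close to level. In green against white 47 members were higher and 29 lower, with a median log2 difference of 0.038 beside 0.0090 over all genes, of which 52.4% were higher and 47.6% lower. In blue against white 31 were higher and 45 lower, with a median of -0.035 beside 0.0048 over all genes (51.5% higher, 48.5% lower). In green against blue 44 were higher and 32 lower, with a median of 0.054 beside -0.0025 over all genes (49.4% higher, 50.6% lower). The 3 comparisons share libraries pairwise and are not independent of each other. Relative to their mean log2 level over the 9 libraries, the members had a median deviation of -0.015, 0.090 and -0.031 under green light, -0.045, -0.0078 and -0.0096 under blue light and -0.0039, -0.061 and 0.062 under white light. Library 2 of green was the highest and library 2 of white the lowest, and the 3 groups overlapped.

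**Figure D1:**
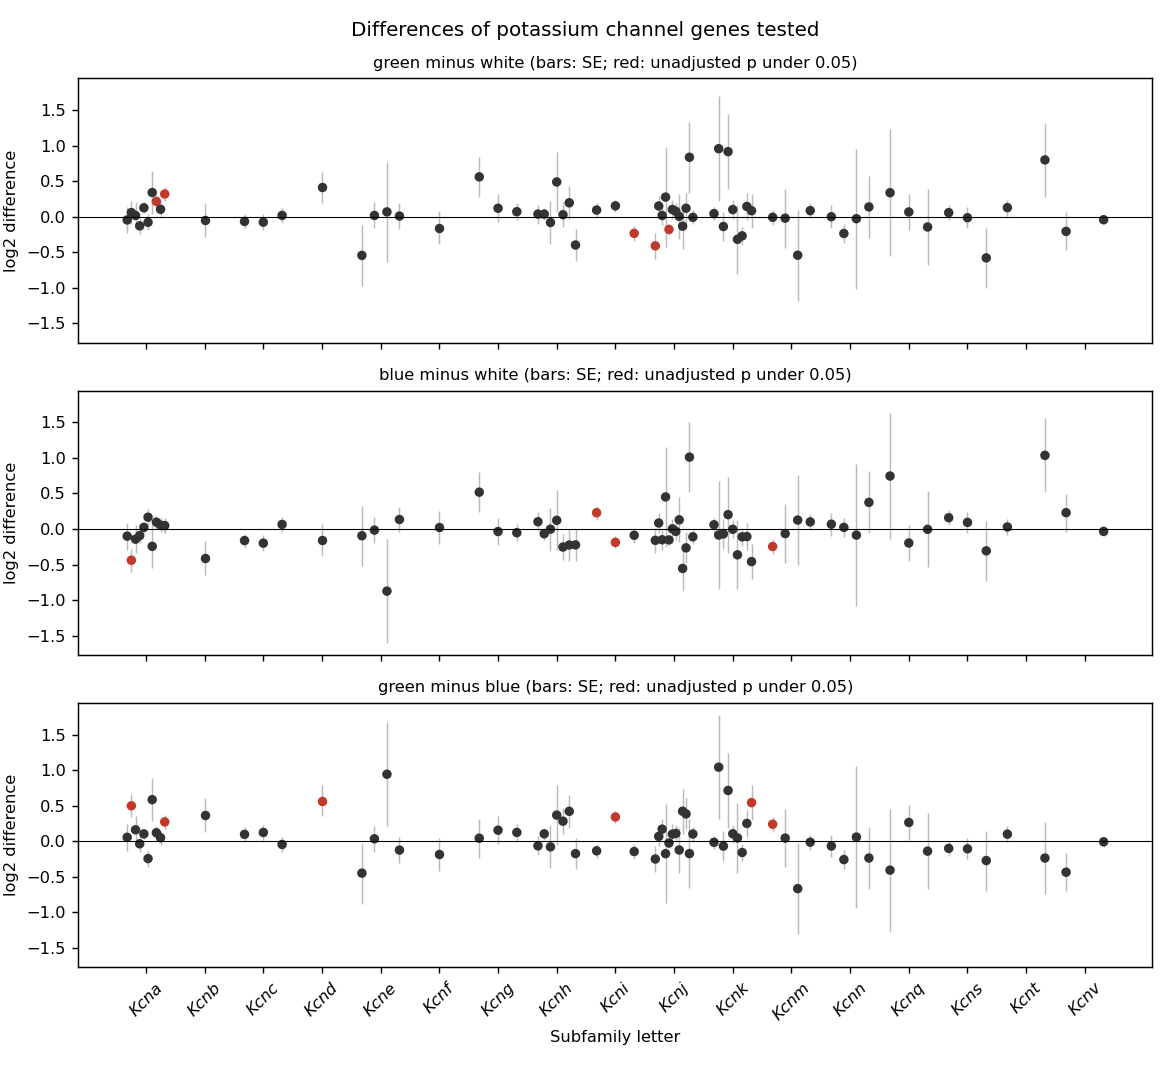
Log2 difference of 72 of the 76 members tested, by subfamily letter, for green less white, blue less white and green less blue light (Kcna includes the Kcnab genes, Kcni holds the Kcnip genes and Kcnm the Kcnma and Kcnmb genes). Bars are standard errors and red points have an unadjusted p under 0.05; within a letter the members are in alphabetical order, and most lie within 0.25 of 0 (58, 60 and 53 of all 76).

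The typical 95% interval of a member's log2 difference reached 0.40 to either side (median over members, green against white). As whole retina was sequenced, fewer cells of a type and less RNA per cell cannot be told apart.

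The 26 voltage-gated pore subunits tested, of 27 in the table, comprise Kcna, Kcnb, Kcnc, Kcnd, Kcnh and Kcnq genes. In blue light 19 of the 26 were lower than in white and 7 higher, with a median log2 difference of -0.12; 48.5% of all genes were lower. In green against blue 18 were higher and 8 lower (median 0.11), and in green against white 16 and 10 (median 0.033), where 49.4% and 52.4% of all genes were higher. The first pair of comparisons shares the blue libraries. Summed markers of bipolar cells were also lowest in blue, and their part in these counts was not tested. At an unadjusted p under 0.05 stood 2, 2 and 0 of the 26 in these comparisons, beside 4.45%, 7.18% and 5.81% of all genes.

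Kcna2 encodes Kv1.2, a delayed rectifier of axons. It was at 77.4, 68.7 and 58.4 CPM under green light, 46.5, 52.3 and 45.8 under blue light and 79, 48.2 and 69.1 under white light. All 3 blue libraries lay below all 3 green ones, while library 2 of white lay among the blue values. Libraries 1 and 2 of white, titled as od and os of animal 6, thus stood at opposite ends of the white group. Blue differed from white by -0.44 ± 0.16 on the log2 scale (SE, unadjusted p = 0.0213, edgeR adjusted p = 1.0). For green from blue it was 0.50 ± 0.16 (unadjusted p = 0.0112, edgeR adjusted p = 0.629). Without library 2 of white the blue-to-white difference was -0.62 and without library 1 of white -0.29.

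Kcna1, the gene of Kv1.1, was at 13.3 ± 3.38 CPM under green light, 12.8 ± 0.637 under blue light and 13.7 ± 2.21 under white light (SD, n = 3 each). Kcna6, which had the most counts of the subfamily, was at 132 ± 20.2, 156 ± 11.1 and 139 ± 12 CPM. Its log2 difference of -0.24 ± 0.11 between green and blue had an unadjusted p of 0.0538. Over the 9 libraries Kcna3 ranged from 18.3 to 31.3 CPM, Kcna4 from 14.3 to 18.7 CPM, Kcna5 from 43.6 to 50.3 CPM and Kcna7 from 0.855 to 1.71 CPM. Kcna5 was higher in every green library than in any other, at 49.1, 49.4 and 50.3 CPM, against at most 47.1 in blue and 46.8 in white, a log2 difference from white of 0.13 ± 0.075. Groups failed to overlap for 4 of the 76 members in green against white (3 higher and 1 lower in green), 5 in blue against white (2 higher and 3 lower in blue) and 13 in green against blue (9 higher and 4 lower in green), beside 10.1%, 9.9% and 14.2% of all genes (5.26%, 6.58% and 17.1% of members). By direction the shares of all genes were 5.34% higher and 4.74% lower in green than in white, 5.76% and 4.14% in blue against white, and 7.23% and 6.94% in green against blue. Kcna7, higher in all green than in all blue libraries, had a log2 difference of 0.59 ± 0.30 between them (unadjusted p = 0.0755).

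Among the Kcnb genes, which encode delayed rectifiers, Kcnb2 ranged from 3.44 to 6.34 CPM, with a log2 difference of -0.41 ± 0.24 in blue against white.

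Kcnv2 encodes Kv8.2, a subunit that forms no channel by itself and joins other Kv subunits; its loss in humans causes a cone dystrophy with enlarged rod responses. It had the smallest spread of the 76 members tested, with an SD of 0.048 on the log2 (CPM + 0.5) scale, and was at 448, 487 and 461 CPM under green light, 474, 464 and 466 under blue light and 456, 489.7 and 492 under white light. Groups overlapped in every comparison. The 95% interval of its log2 difference from white was -0.19 to 0.10 in green and -0.18 to 0.11 in blue, and that between green and blue was -0.15 to 0.14.

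Kcnc genes encode Kv3 channels, whose fast closure supports high firing rates. Kcnc1 was at 61.4 ± 5.67 CPM under green light, 57.4 ± 3.25 under blue light and 64.3 ± 5.87 under white light. Kcnc2 was at 22.7, 22.1 and 23 CPM in the blue libraries and 28.5, 24.1 and 25.4 CPM in the white. The blue libraries were all lower, with a log2 difference of -0.20 ± 0.11 (unadjusted p = 0.0967, edgeR adjusted p = 1.0). Kcnc4 ranged from 52.8 to 64.9 CPM.

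Kcnd1, the gene of the A-type channel Kv4.1, was the single Kcnd gene in the table. It was at 3.17, 3.91 and 3.57 CPM under green light, 2.22, 2.47 and 2.49 under blue light and 3.3, 2.74 and 1.95 under white light. All green libraries were above all blue ones, and the white libraries spanned both. Between green and blue the log2 difference was 0.57 ± 0.22 (unadjusted p = 0.0252, edgeR adjusted p = 0.654), and it ran from 0.49 to 0.65 when each library was left out in turn.

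Among the Kcnh genes, Kcnh2, the gene of the ERG channel, was at 89.8 ± 3.0 CPM under green light, 83.5 ± 4.93 under blue light and 87.5 ± 6.68 under white light, with a 95% interval of -0.15 to 0.22 for green against white. Kcnh1 ranged from 7.77 to 9.94 CPM, Kcnh3 from 1.76 to 4.36 CPM, Kcnh4 from 0.411 to 1.01 CPM, Kcnh5 from 19.4 to 33 CPM, Kcnh7 from 3.18 to 6.23 CPM and Kcnh8 from 2.3 to 4.38 CPM. None of the 7 had an unadjusted p under 0.05 in a comparison. Of the Kcnq genes, Kcnq3, a subunit of the M-current that damps repetitive firing, ranged from 4.79 to 8.86 CPM. Kcnq5 had 21 to 50 counts and Kcnq1 0 to 25, too few for a narrow interval.

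**Figure D2:**
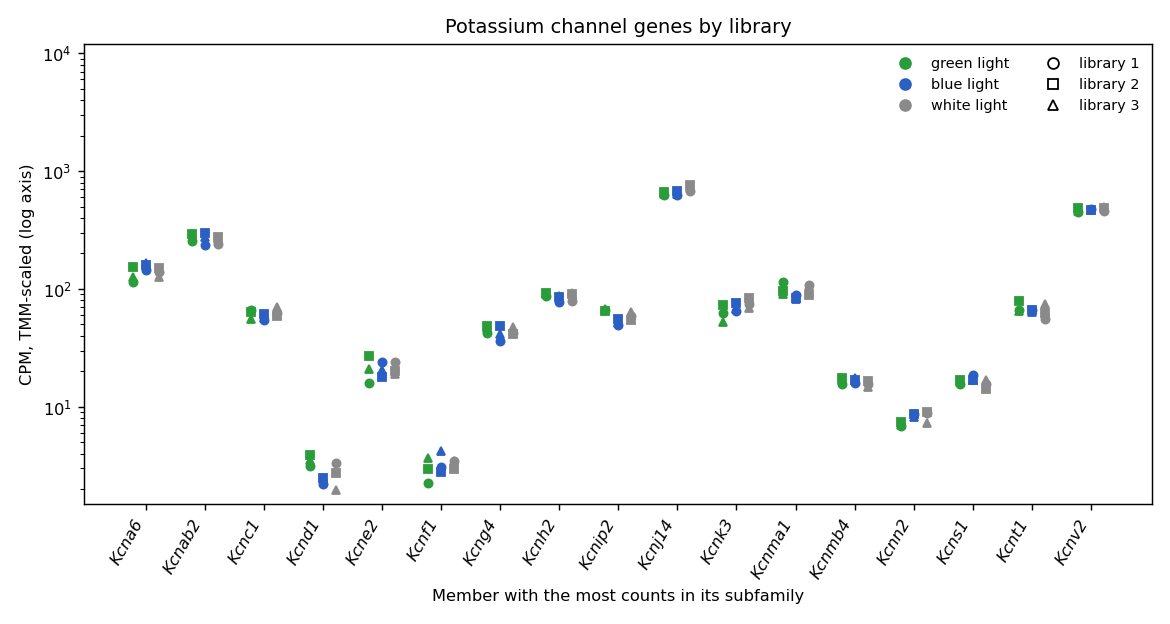
TMM-scaled CPM on a log axis of the member with the most counts in each of 17 subfamilies, with every library as a point (colour for light, shape for library number within a light). Heights compare libraries within a gene, since values are not scaled to transcript length. For Kcnd1 the green points all lie above the blue ones, and for Kcnv2 the 3 lights overlap.

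The 9 modulatory Kv subunits, which need a partner to form a channel, include Kcnv2. Green was lower than white for 5 of the 9, blue for 4. The other Kcnv gene, Kcnv1, was among the 5 members with the widest spread over libraries. It was at 6.31, 3.26 and 4.79 CPM under green light, 8.16, 4.39 and 6.89 under blue light and 5.53, 4.85 and 6.21 under white light, overlapping throughout. Kcng4 was at 46 ± 3.15, 42.2 ± 6.29 and 43.8 ± 3.46 CPM and Kcns1 at 16.3 ± 0.569, 17.4 ± 0.932 and 15.6 ± 1.4 CPM in green, blue and white. Kcnf1 ranged from 2.26 to 4.24 CPM, Kcng2 from 2.36 to 3.66 CPM, Kcns2 from 9.43 to 12.6 CPM and Kcns3 from 0.312 to 0.825 CPM. Kcng1 was higher in all blue libraries, at 1.4, 1.42 and 1.78 CPM, than in the white, at 0.943, 0.968 and 1.3 CPM, with a log2 difference of 0.52 ± 0.28 (unadjusted p = 0.0903).

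Of the 7 calcium- or sodium-activated subunits tested, Kcnma1 encodes the BK channel, which opens on depolarisation and calcium. It was at 114, 95.8 and 91.4 CPM under green light, 88.5, 84.4 and 82.2 under blue light and 109, 88.2 and 106 under white light. Blue was below green throughout and overlapped with white through library 2 of white. Its log2 difference of blue from white was -0.25 ± 0.11 (unadjusted p = 0.0389, edgeR adjusted p = 1.0) and that of green from blue 0.24 ± 0.11 (unadjusted p = 0.0441, edgeR adjusted p = 0.686). Without library 1 of green the green-to-blue difference was 0.14. Green and white had means of 100.3 ± 11.9 and 101 ± 11.1 CPM, and their difference had a 95% interval of -0.24 to 0.22 on the log2 scale.

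The small-conductance calcium-activated channel gene Kcnn2 was at 6.87, 7.48 and 7.02 CPM under green light, 8.71, 8.6 and 8.24 under blue light and 8.83, 9.09 and 7.24 under white light. Green was below blue in all libraries (log2 difference -0.26 ± 0.13, unadjusted p = 0.0772). Kcnn1 ranged from 4.75 to 6.15 CPM and Kcnn4 from 0.324 to 0.795 CPM, and Kcnn3 had 0 to 15 counts. Kcnt1, the gene of a sodium-activated channel, was at 70.2 ± 7.66 CPM under green light, 65.5 ± 1.48 under blue light and 64.2 ± 9.29 under white light. Its paralogue Kcnt2 had 16 to 66 counts and the largest fitted difference of this class, a log2 difference of 1.04 ± 0.52 in blue against white (unadjusted p = 0.0725).

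Of 15 inward rectifier genes found, 12 were tested. Kcnj10 encodes Kir4.1, the main channel by which Müller glia take up potassium. It was at 145, 129.9 and 151 CPM under green light, 152, 183 and 172 under blue light and 209, 230.2 and 126 under white light. The 2 highest values of the 9 were both libraries of animal 6, and library 3 of white was the lowest of all. From white to green the log2 difference was -0.41 ± 0.18 (unadjusted p = 0.0426, edgeR adjusted p = 0.852). Without library 3 of white, which left animal 6 as the whole white group, it was -0.64, and without library 2 of white -0.24; with counts summed per animal label it was -0.26. Green lay below blue in all libraries, with a log2 difference of -0.25 ± 0.18 (unadjusted p = 0.189).

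Other Müller glia markers were read beside it. Glul, the glutamine synthetase of these cells, was at 3612, 3857 and 3999.5 CPM under green light, 3708, 4329.9 and 4218 under blue light and 3607, 4199 and 3676 under white light. The ratio of Kcnj10 to Glul was 0.0579, 0.0548 and 0.0344 in the white libraries and 0.0337 to 0.0423 in the green and blue ones, highest in the 2 libraries of animal 6. The summed level of the 9 Müller markers present, of 10 listed, ran from 10210 to 11112 CPM in green, 11139 to 12599 in blue and 9999 to 11927 in white, with none at 0. In green against white 5 of the 9 were lower, and in blue against white none was. An unadjusted p under 0.05 was reached by 1 of the 9 in green against white (Dkk3, higher in green). It was reached by 2 in blue against white (Crym and Dkk3, both higher in blue). Between green and blue, where Kcnj10 was also lower in green, 8 of the 9 were lower in green, 3 of them at an unadjusted p under 0.05, and the sums did not overlap. The part of Müller cell content in the Kcnj10 values was not tested.

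Kcnj14 encodes Kir2.4, a strong inward rectifier. It was at 623, 659 and 634 CPM under green light, 624, 684 and 641 under blue light and 676, 762 and 730.5 under white light. All green libraries were below all white ones, and blue overlapped with white through library 2 of blue. The log2 difference was -0.18 ± 0.072 for green (unadjusted p = 0.0297, edgeR adjusted p = 0.85) and -0.15 ± 0.072 for blue (unadjusted p = 0.0548), both from white. The related Kir2 genes Kcnj2, Kcnj4 and Kcnj12 ranged from 11.4 to 15.7 CPM, 1.14 to 2.26 CPM and 9.23 to 13 CPM.

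Kcnj13 encodes Kir7.1, the channel of the pigment epithelium. It had the widest spread of the tested members, with an SD of 0.744 on the log2 (CPM + 0.5) scale over 9 libraries. It was at 0.564, 4.36 and 0.571 CPM under green light, 2.1, 1.91 and 2.16 under blue light and 1.03, 2.56 and 0.917 under white light. The green group held both the highest and the lowest library. The summed level of the pigment epithelium markers was 100.1, 416 and 72.5 CPM under green light, 322, 341 and 461 under blue light and 208, 469 and 121 under white light. Not all 12 markers followed this sum. The low markers Tyr, Tyrp1 and Dct were at 0.187, 0.125 and 0 CPM in library 2 of green. In library 3 of white they were at 0.708, 0.708 and 0.643 CPM. The 4 libraries lowest in the sum were also the 4 lowest in Kcnj13. A further fit took the mean log2 level of the 12 markers as a term. Kcnj13 was the single member to pass for that term, with 1.49 ± 0.21 log2 units per unit of the marker level (edgeR adjusted p = 0.0117), beside 0.304% of all genes. The term was tested after these values were seen. At an unadjusted p under 0.05 for it stood 4 members, Kcnj13, Kcnk3, Kcnh3 and Kcna6, each higher with the markers, beside 3.62% of all genes (2.04% higher, 1.58% lower). The log2 difference of green from white was 0.28 ± 0.70 without the term and 0.72 ± 0.32 with it (edgeR adjusted p = 1.0).

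**Figure D3:**
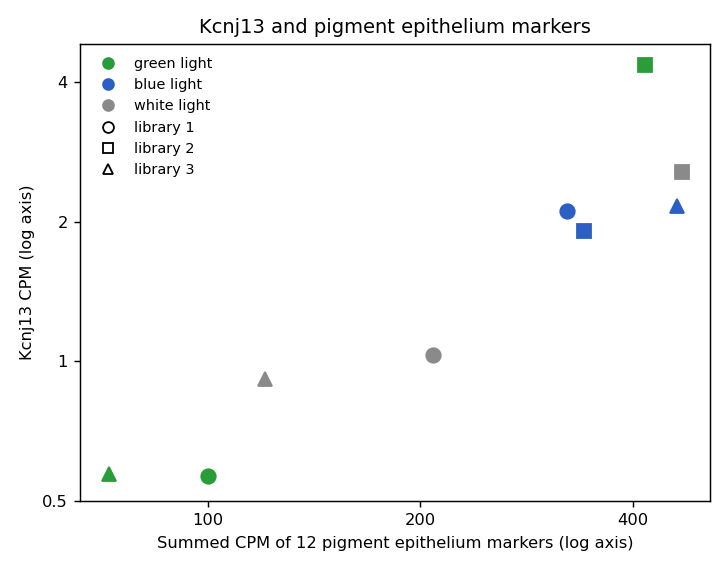
Kcnj13 level against the summed level of 12 pigment epithelium markers in each library, both in TMM-scaled CPM on log axes, with colour for light and shape for library number. Library 2 of green stands highest in Kcnj13, at 4.36 CPM, and libraries 1 and 3 of green lowest, at 0.564 and 0.571 CPM.

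The G-protein-gated rectifiers, which open on signals from inhibitory receptors, are encoded by Kcnj3, Kcnj5, Kcnj6 and Kcnj9. They ranged from 19.2 to 24.7 CPM, 0.842 to 1.93 CPM, 6.86 to 13.8 CPM and 64.1 to 80 CPM. Kcnj5 was lower in every blue library, at 0.842, 1.03 and 1.17 CPM, than in the white ones, at 1.36, 1.56 and 1.56 CPM (log2 difference -0.55 ± 0.32, unadjusted p = 0.109). Of the genes of ATP-sensitive channels, Kcnj11 ranged from 9.59 to 12.8 CPM. Kcnj8, known from pericytes, was at 0.757, 0.53 and 0.67 CPM under green light, 1.05, 0.529 and 0.631 under blue light and 0.162, 0.404 and 0.531 under white light, with counts of 11 to 75. Its log2 difference from white was 0.84 ± 0.50 in green and 1.01 ± 0.50 in blue, with unadjusted p of 0.12 and 0.0661. The sum of 8 vascular and pericyte markers was at 156 to 201 CPM in green, 142 to 173 in blue and 155 to 174 in white, so the sums overlapped. Of the 8, 6 were tested, of which 2 were lower in green than in white and 4 lower in blue than in white. Single markers did not all overlap. Cdh5 was lower in every green library than in any other, and Tek was higher in every blue library than in any white one. Both differences had wide errors. In edgeR Cdh5 in green differed by -2.13 ± 1.01 from white and -2.49 ± 0.99 from blue (unadjusted p = 0.058 and 0.0283). Tek in blue differed by 2.38 ± 1.23 from white (unadjusted p = 0.0788). The part of vascular cell content in the Kcnj8 values was not tested.

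Of 13 two-pore-domain genes 9 were tested. In blue 7 of the 9 were lower than in white (median log2 difference -0.084), where 48.5% of all genes were lower. In green 6 were higher than in white and 6 higher than in blue, where 52.4% and 49.4% of all genes were higher. At an unadjusted p under 0.05 stood 0, 0 and 1 of the 9 in these comparisons, beside 4.45%, 5.81% and 7.18% of all genes. Kcnk3, the gene of the acid-sensitive leak channel TASK-1, had the most counts. It was at 62.8, 73.1 and 52.1 CPM under green light, 65.3, 76.4 and 68.1 under blue light and 74.5, 83 and 68.9 under white light, overlapping throughout. The log2 difference of green from white was -0.27 ± 0.12 (unadjusted p = 0.0546). Its relative Kcnk9 was at 5.0, 3.35 and 3.24 CPM under green light, 2.43, 3.05 and 2.48 under blue light and 3.73, 2.73 and 4.49 under white light. All green libraries exceeded all blue ones (log2 difference 0.54 ± 0.24, unadjusted p = 0.0469, edgeR adjusted p = 0.69). Its 2 highest libraries were the ones titled "-B", and without both of them the difference was 0.32; without library 1 of green alone it was 0.32.

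Kcnk1 was at 23.2 ± 0.574 CPM under green light, 23.4 ± 0.515 under blue light and 22.5 ± 2.16 under white light. Kcnk4 ranged from 4.28 to 7.06 CPM, Kcnk12 from 2.61 to 4.15 CPM and Kcnk15 from 10.6 to 13.7 CPM. Kcnk2, Kcnk10 and Kcnk13 had 19 to 84, 4 to 24 and 18 to 68 counts. Kcnk13 was at 0.41, 1.06 and 0.813 CPM under green light, 0.673, 0.447 and 0.264 under blue light and 0.295, 0.318 and 0.595 under white light, with overlap in each comparison.

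The 13 auxiliary subunits tested, of 15, had an unadjusted p under 0.05 for 3 in green against white, 2 in blue against white and 2 in green against blue, beside 5.81%, 4.45% and 7.18% of all genes. Kcnip2 encodes KChIP2, a calcium-binding partner that brings Kv4 channels to the membrane. It was at 65.9, 65 and 67.5 CPM under green light, 49.9, 55.2 and 51.6 under blue light and 59.4, 54.9 and 64.2 under white light. Green lay above both other lights in every library, and blue overlapped with white. The log2 difference of green from blue was 0.34 ± 0.084 (95% interval 0.16 to 0.53). Its unadjusted p of 0.00193 was the smallest of the family and rank 53 of the 15469 genes, and it did not pass (edgeR adjusted p = 0.536, DESeq2 adjusted p = 0.0651). The difference ran from 0.27 to 0.38 under all alternatives run, which used these same libraries, with adjusted p from 0.0651 to 1.0. From white, green differed by 0.15 ± 0.084 (unadjusted p = 0.097) and blue by -0.19 ± 0.084 (unadjusted p = 0.0477).

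Kcnip1 was at 19.4, 21.1 and 19.8 CPM under green light, 20.6, 22.8 and 22.8 under blue light and 20.3, 17.2 and 19 under white light. Blue was above white in every library, with a log2 difference of 0.23 ± 0.10 (unadjusted p = 0.0436, edgeR adjusted p = 1.0). Kcnip3, whose product also acts as the transcriptional repressor DREAM, was at 28.8, 27.1 and 27.5 CPM under green light, 29.9, 31.7 and 30.6 under blue light and 28.2, 33.5 and 36.3 under white light. Green was below blue in every library and overlapped with white through library 1 of white. The log2 difference of green from white was -0.23 ± 0.10 (unadjusted p = 0.0428, edgeR adjusted p = 0.852).

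The Kcnab genes encode cytoplasmic beta subunits of Kv1 channels. Kcnab3 was at 71.3, 80.9 and 74.2 CPM under green light, 56.1, 67.7 and 63.6 under blue light and 58.7, 67.7 and 54.9 under white light. All green libraries lay above all others, while blue and white overlapped. The log2 difference of green was 0.32 ± 0.10 from white (unadjusted p = 0.0106, edgeR adjusted p = 0.837) and 0.27 ± 0.10 from blue (unadjusted p = 0.0241, edgeR adjusted p = 0.654). Kcnab1 was at 76.4, 68.9 and 63.1 CPM in green and 63.9, 57 and 58.6 CPM in white, overlapping at library 3 of green and library 1 of white (log2 difference 0.22 ± 0.091, unadjusted p = 0.037, edgeR adjusted p = 0.852). Without library 1 of green that difference was 0.14, and without both libraries titled "-B" it was 0.12. Kcnab2, with the most counts of the 3, was at 281 ± 21.4, 271 ± 30.7 and 261 ± 17.2 CPM in green, blue and white.

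**Figure D4:**
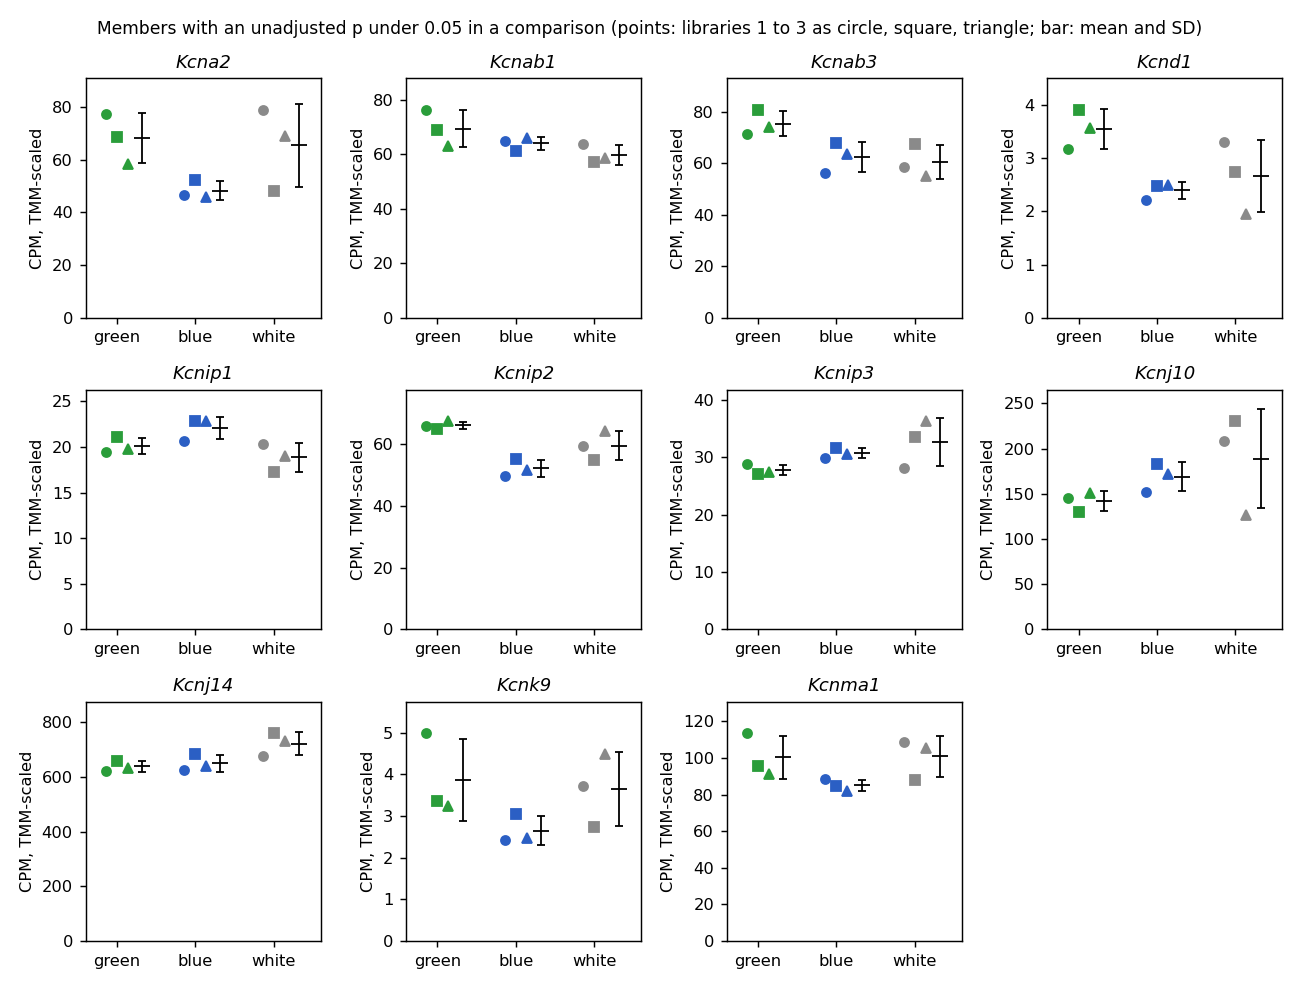
TMM-scaled CPM of 11 of the 12 members with an unadjusted p under 0.05 in a pairwise comparison, by light, with each library as a point and the mean and SD of 3 libraries as a bar. Kcnip2 and Kcnab3 show all green libraries above all others, Kcna2 and Kcnma1 show the blue libraries below the green, and none of the 12 passed the adjusted threshold in edgeR.

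Kcne2, a small membrane subunit, was at 21.3 ± 5.58 CPM under green light, 20.8 ± 2.92 under blue light and 21 ± 2.78 under white light. Kcne4 ranged from 2.38 to 2.97 CPM, and Kcne1 and Kcne3 had 32 to 77 and 4 to 44 counts. Of the BK beta subunits, the neuronal Kcnmb4 was at 16.6 ± 1.0, 16.7 ± 0.828 and 15.6 ± 0.994 CPM in green, blue and white, with an interval of -0.14 to 0.32 for the log2 difference of green from white. Kcnmb2 had 27 to 56 and Kcnmb3 5 to 43 counts.

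The 11 members below the count filter were Kcna10, Kcne5, Kcnj1, Kcnj15, Kcnj16, Kcnk5, Kcnk6, Kcnk7, Kcnk18, Kcnmb1 and Kcnu1. Kcne5, Kcnk5 and Kcnu1 had 0 counts in all libraries, and the highest count of any was 22, for Kcnk6. A count of 0 in a library allows up to 0.040 to 0.0483 CPM (3 counts of its total, covering counting error only); if the table enters 1 fragment as 4 counts, which its low values leave undecided, the limit is 4 times higher. Kcnmb1, the beta subunit of smooth muscle BK channels, had at most 13 counts.

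Beyond the family, 32 genes that bind potassium channels or move potassium were listed, of which 30 were tested. In green against white 2 stood at an unadjusted p under 0.05, both higher in green; in blue against white 1 did, higher in blue; in green against blue 4 did, all higher in green. Over all genes the shares in those directions were 3.52%, 2.47% and 4.11%. None passed in edgeR (smallest adjusted p 0.599), and the median log2 differences were 0.00018, -0.0028 and 0.0094 in that order. Abcc8, the sulfonylurea receptor that joins the product of Kcnj11, was at 16.7, 15.5 and 17.2 CPM under green light, 13.6, 11.4 and 12.7 under blue light and 13.2, 13.1 and 14.9 under white light. Green exceeded both other lights in every library, with log2 differences of 0.26 ± 0.11 from white (unadjusted p = 0.0445) and 0.39 ± 0.11 from blue (unadjusted p = 0.00593), while Kcnj11 itself differed from white by 0.15 ± 0.14.

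Lrrc26, a gamma subunit of BK channels, was at 7.49, 7.25 and 7.53 CPM under green light, 5.84, 5.78 and 4.52 under blue light and 3.96, 6.3 and 5.52 under white light. Its log2 differences were 0.50 ± 0.19 from white and 0.46 ± 0.19 from blue (unadjusted p = 0.0215 and 0.029). Its relative Lrrc38 differed by 0.50 ± 0.18 in blue against white (unadjusted p = 0.0161). The pacemaker channel genes Hcn3 and Hcn4 differed between green and blue by 0.29 ± 0.090 and 0.24 ± 0.11 (unadjusted p = 0.00779 and 0.0488).

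In green and in white the 2 libraries of 1 animal were as far apart in these genes as some libraries of different lights. The median absolute log2 difference over the 76 members was 0.208 for the green pair of animal 11 (both titled od), 0.101 for od and os of animal 32 in blue and 0.189 for od and os of animal 6 in white. It ran from 0.118 to 0.25 for the 27 pairs of libraries from different lights, so that the blue pair was closer than any of these. For the 6 pairs from the same light but different animal labels it ran from 0.155 to 0.221. Its mean was 0.166 for pairs of 1 animal label, 0.188 for these 6 pairs and 0.188 for pairs from different lights. The 2 libraries titled "-B" were the 2 highest of the 9 for 6 members, among them Kcnc1, Kcnh5, Kcnh7, Kcnj3 and Kcnk9, beside 3.54% of all genes (7.89% of members). They were the 2 lowest for 3, Kcna4, Kcne4 and Kcnmb4, beside 4.1% of all genes (3.95% of members). With the suffix as a term in the fit, 0 members and 0% of all genes passed for it in edgeR, and 6 members reached an unadjusted p under 0.05, beside 6.87% of all genes. Of the 6, 4 were higher with the suffix, among them Kcnh5, Kcnh8 and Kcnk9 (all genes 3.46%) and Kcna6 and Kcne2 lower (3.4%). No blue library has the suffix.

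Markers of cells other than those named above were summed in each library. Lens markers, 11 in all, were at 73 to 90.2 CPM in green, 49 to 83 in blue and 30.1 to 69.4 in white, so that green lay above white, and 7 of the 11 had an unadjusted p under 0.05 in that comparison. The 8 muscle markers found were at 4.77 to 5.06, 3.16 to 3.78 and 5.07 to 12.4 CPM, lowest in blue. Sums over 8 bipolar markers were 1460.1 to 1540.1, 1367 to 1432 and 1445 to 1459 CPM, with green highest and blue lowest throughout. Cone, amacrine, horizontal, ganglion cell and microglial sums overlapped between all lights, but some single markers did not. The cone gene Cngb3 was higher in every green library than in any other (log2 difference 0.75 ± 0.18 from white and 0.63 ± 0.18 from blue). Opn1sw was higher in all green than in all white libraries, and Chat and Pou4f2 higher in all green than in all blue ones. Gnb3, Aif1 and C1qc were lower in all blue than in all white libraries. The other markers tested from these lists overlapped. No marker passed in edgeR in a pairwise comparison (smallest adjusted p 0.57), and the part of cell content in the family's values was not tested.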

How the data were processed

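The deposited data are raw counts per gene, whole numbers for 19962 genes in 9 libraries, as the authors' file headers show. No aligner, counter, strand setting, build or annotation is named (not given in the sources used here), so reads of overlapping or antisense genes could not be told apart. Low counts favour multiples of 4 (2014 values equal 4 and 472 equal 3), so that a unit of the table may not be 1 fragment; dividing by 4 was tried.

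The 9 libraries were fitted together with edgeR 4.0.16 under R 4.3.3, light group being the only term, after filterByExpr (minimum count 10, minimum total 15; 15469 genes kept), TMM scaling and quasi-likelihood F tests. P-values were adjusted over every gene tested by the Benjamini-Hochberg method. Each SE is the absolute log2 difference divided by the square root of F, and 95% intervals use the test's degrees of freedom. Biological variation had a common coefficient of 17.7%. The code was tested on simulated data. All 87 symbols are found among RefSeq gene names for mCavPor4.1. Those names hold 5 further family symbols that are not among the 19962 genes with counts, so nothing can be said of their levels. Channel protein sequences were not used here. Libraries are numbered in order of deposition, which pairs nothing.

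Genes were named where a member had an unadjusted p under 0.05, had the most counts of its subfamily, was on a fixed list of 18 retinal members or was among the 5 with the widest spread; most remaining members are given by range, and a few whose groups did not overlap were singled out after their values were seen. The members, the partner list and the marker lists were chosen with earlier results of these data known. Alternatives used DESeq2 1.42.0 and limma 3.58.1. Markers of 12 cell types were summed per library. All counts of members include every member tested; the values of some members and markers are not reported here.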

Additional observations from a re-analysis of the deposited data

How the results depend on the processing

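Under 21 alternatives per pairwise comparison and 20 for the joint test, no member passed an adjusted p of 0.05. The alternatives were DESeq2's size factors, upper-quartile scaling, no filter, at least 5 CPM in 3 libraries, DESeq2's test (Wald; likelihood ratio for the joint test), voom with the animal label as a block, the 6 libraries of a comparison alone, counts summed per animal label, counts divided by 4, the pigment epithelium level or the "-B" suffix as a covariate, both "-B" libraries left out, and each of the 9 libraries left out in turn. The smallest adjusted p of a member over these was 0.117 in green against white, 0.377 in blue against white and 0.0651 in green against blue. The members' median log2 difference ran from -0.0081 to 0.085, from -0.071 to -0.0080 and from 0.010 to 0.11; in green against white it was below 0 with counts summed per animal label and without library 2 of white. With counts of at least 5 CPM, 46 members were tested, of which 19 were higher in blue than in white and 29 in green than in blue. The number of members at an unadjusted p under 0.05 was 1 in green against white and 3 in blue against white with the 6 libraries alone. It was 3 in each with counts summed per animal label, 2 in each with the pigment epithelium covariate, and 1 in blue against white with the suffix covariate. In the joint test it was 1 with the pigment epithelium covariate and 5 without both "-B" libraries. Each of the 12 members at that p kept its sign under every alternative in which it was tested. They were picked by that p in these same libraries, so the kept signs are no separate evidence. The correlation within animal labels was set to 0 in voom, where its estimate was not positive. These counts, and the tests of the pigment epithelium and suffix terms themselves, were added after seeing the data. No paired analysis was possible because the labels give no replicate number shared between lights.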
